A study of Mus musculus with 8 samples.

Results

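The proliferating cells were the cells that the authors had placed in a cluster named for proliferation, 257 of 32457 annotated leukocytes (0.792%) in 8 droplet-based single-cell RNA-seq libraries, and 3 of the 21 clusters were smaller. Each member was found by joining the barcode in the authors' annotation to the barcode of the library named beside it, and no measured value was used in the selection here. The authors had clustered the cells on their expression, so contrasts between the cluster and all other cells are given as descriptions with no test. The leukocytes came from adult male C57BL/6 mice and were sorted as CD45+ and not reached by a CD45 antibody injected into the blood (CD45iv-), so the sort favoured cells outside the vessels. Control mice gave 1 library each of brain parenchyma, pia and dura. Mice with occlusion of the middle cerebral artery (MCAO), a model of ischemic stroke, gave 2 libraries of brain, 1 of pia and 1 of dura at 24 h and 1 of brain at 72 h. The study states that experiments were pooled within a compartment and gives a total n for each compartment. The number of mice behind each library and its occlusion time were not given in the sources used here. The methods call the controls naive and a legend calls them sham-operated, so they are called control. For the control pia library the title says brain, but its source, tissue and description say pia.

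Cells that divide copy their DNA in S phase and separate the copies in mitosis, and each step has its own set of transcripts. Replication genes include the Mcm helicase subunits, the clamp Pcna and the ribonucleotide reductase subunit Rrm2, while mitotic genes include the kinase Cdk1, topoisomerase Top2a and the chromosome passenger Birc5. Clustering on such genes can group cells of several lineages, because the cycle programme is shared by all dividing cells. In the brain, microglia are known to maintain themselves by local division, whereas neutrophils, monocytes and B cells are mostly renewed from precursors in bone marrow, including that of the skull next to the dura.

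Before the results, 3 features of the libraries are needed. Replicate 2 of brain at 24 h and the brain at 72 h library were deposited with 31053 genes and the other 6 libraries with 32285, of which 30406 were shared and used. These were the only brain libraries with at least 10 proliferating cells, so for these cells brain against meninges and one gene table against the other cannot be told apart. The study labels brain at 72 h and dura at 24 h with kit version 3 and the others with version 2. The files held 6591898 (control pia) to 20754181 (brain at 72 h) unique molecular identifiers (UMIs, 1 per captured transcript). Of the annotated barcode sequences, 290 occurred in more than 1 library, 8 proliferating barcodes shared their sequence with another library, and 0 sequences were proliferating in more than 1.

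By the authors' cluster, proliferating cells made up the largest shares in control dura and in the brain at 72 h. By cycle genes after thinning, dura at 24 h came second, with 1.96% of annotated cells and 3.27% of all barcodes against 1.84% and 1.99% in the brain at 72 h. They were 62 of 2811 annotated cells in control dura (2.21%, 95% exact binomial interval 1.70 to 2.82) and 106 of 6049 in the brain at 72 h (1.75%, 1.44 to 2.12). Dura at 24 h had 43 of 4518 (0.952%, 0.690 to 1.28). Lower shares were found in control pia with 14 of 2810 (0.498%, 0.273 to 0.835), brain at 24 h replicate 2 with 16 of 3468 (0.461%, 0.264 to 0.748) and pia at 24 h with 10 of 3922 (0.255%, 0.122 to 0.468). Control brain held 4 of 4297 (0.0931%, 0.0254 to 0.238) and brain at 24 h replicate 1 held 2 of 4582 (0.0436%, 0.00529 to 0.158). The brain at 72 h thus supplied 41.2% of all proliferating cells and the 2 dura libraries 40.9%. The replicates of brain at 24 h had intervals that did not overlap, and the intervals cover counting error only.

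No difference in share passed the test when libraries were the replicates. The mean share was 0.978% ± 0.868 (SD, n = 4) in the meningeal libraries and 0.588% ± 0.799 (SD, n = 4) in the brain libraries (two-sided exact permutation p = 0.486, smallest possible 0.0286). After MCAO it was 0.693% ± 0.681 (SD, n = 5) against 0.932% ± 1.12 (SD, n = 3) in controls (two-sided exact permutation p = 0.696, smallest possible 0.0179). With labels exchanged only within brain, pia and dura at 24 h and control, the exact permutation p was 0.417, and no p under 0.0833 was possible. Control dura decided both directions, since without it the differences were -0.0193 percentage points for meninges minus brain and 0.397 for MCAO minus control. Counted among cells outside the microglia clusters, with all libraries kept, meninges minus brain was 0.0036 percentage points in place of 0.390 (two-sided exact permutation p = 1). Control, 24 h and 72 h libraries came from different mice, since each mouse was killed at a single time. Nothing states that libraries of the same condition and time came from separate animals. The p-values thus measure only the spread between these libraries, which may be technical.

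**Figure D1:**
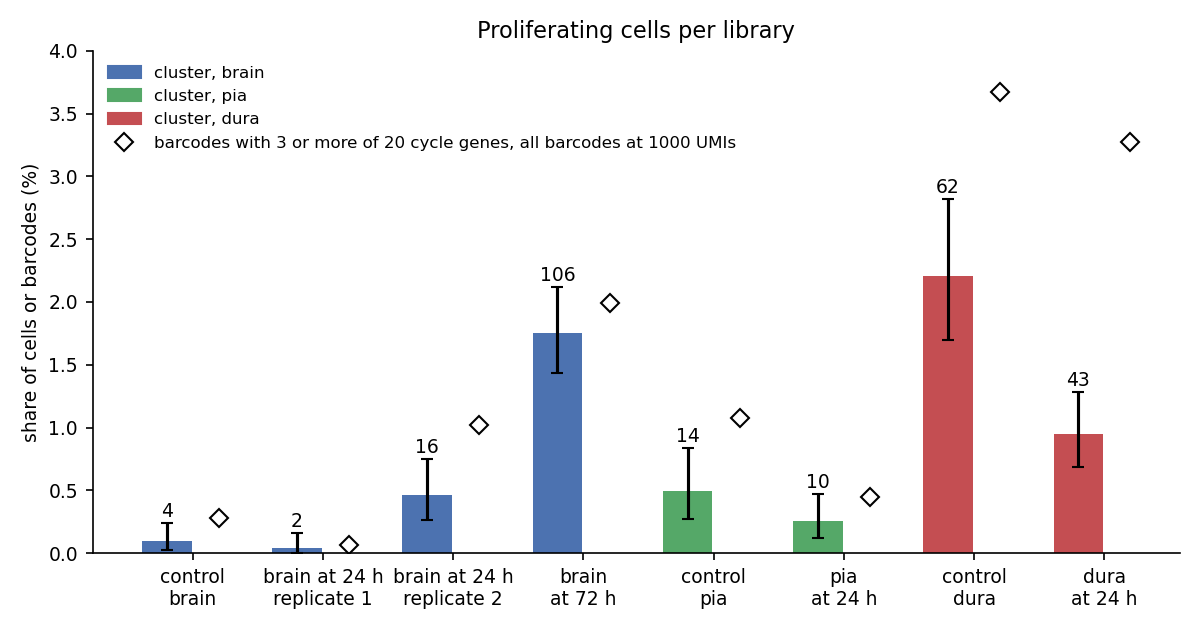
Share of proliferating cells among annotated cells (%, bars with 95% exact binomial intervals, number of cells above) in each of the 8 libraries, with open diamonds for the share of all barcodes with at least 3 of 20 cycle genes after thinning to 1000 UMIs. Control dura (2.21%) and brain at 72 h (1.75%) have the highest bars, and the diamond of dura at 24 h (3.27%) lies far above its bar (0.952%).

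The cluster's markers marked its cells. Hmgb2, a chromatin protein abundant in dividing cells, had a UMI in 255 of 257 cells. Its level was 3160 normalised counts (CPM, the UMIs of a gene over the cells of a library, per 1000000 UMIs of these cells) ± 801 (SD, n = 6 libraries with at least 10 proliferating cells), against 381 ± 148 in the other annotated cells of the same libraries. Birc5, which encodes the survivin subunit of the chromosome passenger complex, had a UMI in 198 cells and 597 CPM ± 223 against 9.35 ± 8.75 (SD, n = 6). Birc5 was at 348 CPM in replicate 2 of brain at 24 h and 298 at 72 h. In pia it was at 787 in controls and 690 at 24 h, and in dura at 820 and 642. The libraries with the shorter gene table were the 2 lowest, and the other cells of these libraries were at 3.77 and 5.50 CPM.

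Genes of both S phase and mitosis were higher in these cells than in the others, while the D-type cyclins differed among themselves. Of 45 mitosis genes, 42 were at least 2-fold above the other cells in all 6 libraries, of 30 replication genes 26, and of 18 chromatin and tubulin genes 13, whereas over all 22841 genes with a UMI 234 were (1.02%). The mitosis list summed to 11184 CPM ± 1689 against 782 ± 271 and the replication list to 5433 ± 2037 against 653 ± 212 (SD, n = 6). Among regulators, 8 of 22 were 2-fold higher in every library. They included E2f1 (68.6 CPM ± 24.5 against 9.49 ± 2.30) and Mybl2 (42.3 ± 19.6 against 1.50 ± 0.862), transcription factors of the cycle, and the cyclin Ccnd3 (323 ± 109 against 93.0 ± 26.4). In contrast, the cyclin Ccnd2 was at 62.0 CPM ± 31.6 against 150 ± 47.1, and the cycle inhibitor Cdkn1a was at 607 ± 271 against 725 ± 426. Myc did not separate the classes, with 35.5 ± 29.7 against 35.6 ± 12.7. Of 14 growth factor receptors, such as Csf1r, Flt3 and Il7r, 0 were 2-fold higher in every library and 5 were higher in none of the 6. Over all genes 10803 of 22841 were higher in none. Both counts include ties, such as 0 in both classes of a library.

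The promoters below carry the letters searched for in the cycle lists. Mitotic genes are known for the cell cycle homology region (TTTGAA or TTTAAA) with CCAAT boxes bound by NF-Y, and replication genes for E2F sites, searched here as TTCCCGC and TTTGGCGC. Both strands were searched from 250 bases before to 50 after the start, and TTTAAA reads the same on both strands. The 250 bases before the start are shown (RefSeq, GRCm38.p6, 5′ to 3′ on the gene's strand) with matches in capitals for Hmgb2 and Birc5, for the 4 genes of both lists with the highest mean CPM and a match (Slbp, Rrm2, Cks2, Pcna), and for Cenpa and Mcm7, which were picked after their matches were seen. The histone mRNA binding protein Slbp, Rrm2, Pcna and the helicase subunit Mcm7 act in S phase, and Cks2, a partner of Cdk1, and the centromeric histone Cenpa act in mitosis.
Hmgb2 (chr8:57511593-57511842, + strand): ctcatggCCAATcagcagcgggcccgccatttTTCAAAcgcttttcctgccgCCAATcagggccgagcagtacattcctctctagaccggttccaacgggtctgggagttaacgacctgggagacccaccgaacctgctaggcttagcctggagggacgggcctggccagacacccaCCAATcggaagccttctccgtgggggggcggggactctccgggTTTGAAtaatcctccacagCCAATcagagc
Birc5 (chr11:117848987-117849236, + strand): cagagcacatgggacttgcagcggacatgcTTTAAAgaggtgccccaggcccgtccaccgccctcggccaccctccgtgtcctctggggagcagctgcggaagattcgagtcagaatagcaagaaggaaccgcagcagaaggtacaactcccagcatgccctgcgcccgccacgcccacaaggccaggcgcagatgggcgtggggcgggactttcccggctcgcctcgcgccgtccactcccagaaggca
Slbp (chr5:33652575-33652824, - strand): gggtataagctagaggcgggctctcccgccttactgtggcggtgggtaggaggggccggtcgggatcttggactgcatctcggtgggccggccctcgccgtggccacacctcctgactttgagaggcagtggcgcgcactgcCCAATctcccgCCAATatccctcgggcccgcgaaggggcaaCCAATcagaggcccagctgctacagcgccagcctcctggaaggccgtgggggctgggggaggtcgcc
Rrm2 (chr12:24708004-24708253, + strand): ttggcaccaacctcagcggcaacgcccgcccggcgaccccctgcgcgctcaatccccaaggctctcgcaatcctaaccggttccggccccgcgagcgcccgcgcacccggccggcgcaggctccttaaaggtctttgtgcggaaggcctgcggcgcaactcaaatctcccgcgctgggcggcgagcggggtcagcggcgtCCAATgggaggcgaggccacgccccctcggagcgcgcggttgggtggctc
Cks2 (chr13:51644982-51645231, + strand): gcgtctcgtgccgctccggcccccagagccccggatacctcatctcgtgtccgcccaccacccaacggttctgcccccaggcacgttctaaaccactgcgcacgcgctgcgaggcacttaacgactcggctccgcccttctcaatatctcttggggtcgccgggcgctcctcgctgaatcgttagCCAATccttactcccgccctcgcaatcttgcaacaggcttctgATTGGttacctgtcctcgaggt
Pcna (chr2:132253181-132253430, - strand): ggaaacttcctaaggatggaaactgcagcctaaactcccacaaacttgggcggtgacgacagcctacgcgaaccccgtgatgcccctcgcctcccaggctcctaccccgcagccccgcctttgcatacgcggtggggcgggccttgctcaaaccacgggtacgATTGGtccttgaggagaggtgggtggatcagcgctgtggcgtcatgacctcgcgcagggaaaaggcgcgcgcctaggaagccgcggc
Cenpa (chr5:30666636-30666885, + strand): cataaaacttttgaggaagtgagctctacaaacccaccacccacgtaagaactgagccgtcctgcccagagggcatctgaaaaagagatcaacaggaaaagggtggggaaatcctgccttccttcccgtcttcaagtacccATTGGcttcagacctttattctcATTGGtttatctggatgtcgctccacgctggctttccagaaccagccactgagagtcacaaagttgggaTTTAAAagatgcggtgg
Mcm7 (chr5:138171884-138172133, - strand): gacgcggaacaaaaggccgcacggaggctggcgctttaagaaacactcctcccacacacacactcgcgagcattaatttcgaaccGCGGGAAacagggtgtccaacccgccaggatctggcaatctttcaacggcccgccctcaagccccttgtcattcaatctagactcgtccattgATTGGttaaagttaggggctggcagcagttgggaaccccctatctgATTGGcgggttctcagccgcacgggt
TTTGAA or TTTAAA was found in 82.9% of 41 promoters of 39 mitosis genes, in 24.1% of 29 promoters of 24 replication genes and in 27.6% of all 32851 promoters. CCAAT was found in 78.0%, 58.6% and 37.4%, and an E2F word in 0%, 44.8% and 5.06%. A match describes these letters only, and 6 genes of each list had no entry in the table.

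The lineage of each cell was read from 21 lists of marker genes, and the cell was put with the list of which it had the most distinct genes (called microglia-led and so on). Microglia-led cells were the most numerous at 73 of 257, followed by 67 monocyte/macrophage-led, 44 B-lineage-led, 20 led by T, NK or ILC2 genes, 13 granulocyte-led, 8 dendritic-led and 4 erythroid-led. A further 27 cells were tied between lineages and 1 had too few markers. Applied to other clusters, the rule named 98.0% of the B cell cluster (Bc) B-lineage and 94.3% of T cells T/NK/ILC2. The rule did poorly for dendritic cells. It named 10.3% of the cluster mDC1 dendritic, 33.2% monocyte/macrophage and 38.1% tied, and of mDC2 21.6% dendritic and 44.1% tied. The 3 main microglia clusters were 94.3% to 98.0% microglia-led, and 96.7% of the cluster Granulo_2, which carried neutrophil genes, were granulocyte-led. The cluster named Granulo_1 was 79.8% monocyte/macrophage-led, and it is used here as the monocyte reference. Between 30.1% and 38.7% of the cells in CAM_1, CAM_2, Macro_1, Macro_2 and the stroke-associated cluster SAMC were microglia-led, so microglia-led is a statement about marker genes and not about origin.

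**Figure D2:**
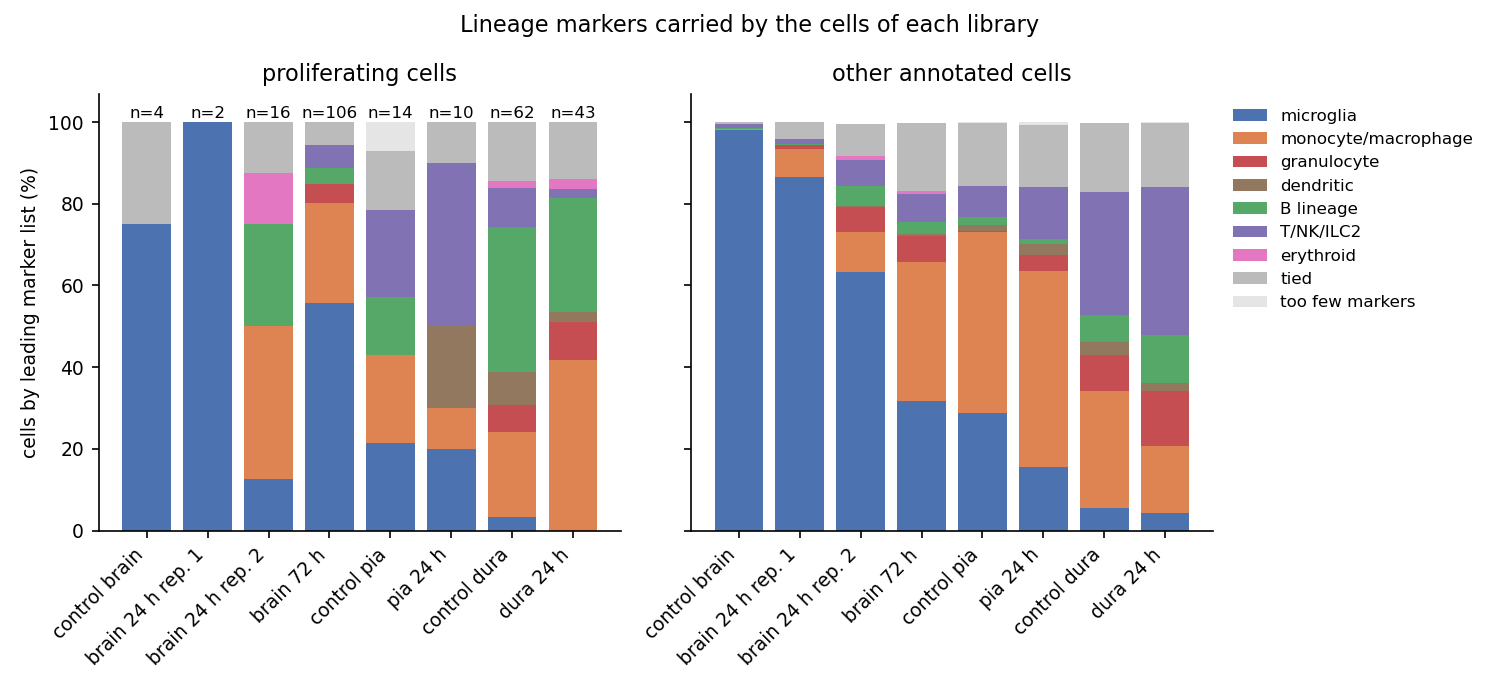
Cells by leading marker list (% of each library's cells, stacked) for the proliferating cells (left, n above each bar) and the other annotated cells (right) of the 8 libraries. Microglia-led cells fill 55.7% of the bar of brain at 72 h, B-lineage-led cells 35.5% of that of control dura and monocyte/macrophage-led cells 41.9% of that of dura at 24 h.

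By the marker rule, microglia-led cells were the largest group of proliferating cells in the brain at 72 h, but by profile likelihood the order turned, with 30.2% in microglia and 48.1% in monocyte/macrophage clusters. There they were 59 of 106 (55.7%, 45.7 to 65.3), against 31.6% of the other cells of this library. A further 26 (24.5%, 16.7 to 33.8) were monocyte/macrophage-led, against 2023 of 5943 other cells. The remaining cells were 6 led by T, NK or ILC2 genes, 5 granulocyte-led, 4 B-lineage-led and 6 tied. In control brain 3 of 4 proliferating cells were microglia-led, and so were 4206 of 4293 other cells. In brain at 24 h replicate 1 these counts were 2 of 2 and 3962 of 4580. Brain at 24 h replicate 2 had 6 monocyte/macrophage-led, 4 B-lineage-led, 2 microglia-led and 2 erythroid-led cells among its 16, although 63.3% of its other cells were microglia-led. After thinning to 1000 UMIs, 1 of its 16 cells was still monocyte/macrophage-led (6.25% in place of 37.5%), so this order did not hold at a lower depth.

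Set against the microglia clusters of the same library, the proliferating microglia-led cells were 5.43% (4.16 to 6.95) of microglia in the brain at 72 h. The share was 0.0803% (0.0166 to 0.234) in control brain, 0.0667% (0.00807 to 0.241) in brain at 24 h replicate 1 and 0.100% (0.0121 to 0.361) in replicate 2. The interval at 72 h lay above those of the 3 other brain libraries, but there was 1 library at 72 h and so no test. When cells were instead given to the cluster whose summed profile made their counts most likely, cycle genes left out, the value at 72 h was 3.02%, and with all microglia-led cells as the denominator it was 3.04%. In the pia, 3 of the 14 proliferating cells of controls and 2 of 10 at 24 h were microglia-led, and in the dura 2 of 62 and 0 of 43, the latter with an exact upper limit of 4.74% of the microglia there. By profile likelihood 0 proliferating cells of the 4 meningeal libraries fell into microglia clusters.

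The 59 microglia-led cells at 72 h carried the defining genes of microglia at lower levels than microglia of control brain. The median cell had 8 of the 12 microglia markers, which chose these cells. Tmem119, a microglial surface protein, was at 568 CPM, compared with 857 in the microglia clusters at 72 h and 3902 in those of control brain. The purinergic receptor P2ry12 was at 277 CPM against 560 and 7265. Sparc, a matricellular protein, did not follow this order, with 1645 CPM against 2742 and 2416. A UMI of Tmem119 was present in 69.5% of these cells (median 4704 UMIs) and in 3.88% of the lymphoid cells of this library (median 1184.5 UMIs), which should lack it.

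Spp1, Fn1, Lyz2 and Apoe were higher in these 59 cells than in the microglia clusters at 72 h, but the values of Lyz2 and Apoe depended on whether profile likelihood also put the cells in microglia clusters. Spp1 and Csf1 are on the SAMC list and Fn1 on the monocyte list, which competed in the marker rule, so these genes are not independent of the choice of cells. The group in microglia clusters by likelihood, set apart after seeing the data, had 32 cells, and the other 27 fell into other clusters. Spp1 (osteopontin) was at 1582 CPM in all 59 cells, 1145 in the 32 and 284 in the microglia clusters, and Fn1 (fibronectin), a monocyte marker here, at 431, 389 and 117. Lyz2 (lysozyme) was at 1763 CPM in the 59 cells but at 360 in the 32, against 670, and Apoe at 5454 but at 1600, against 3874. The 27 other cells had 3179 and 9343 CPM. The likelihood used all these genes, so the values of the 32 and the 27 cells in part restate the split and give no independent check. The receptor Csf1r, which microglia need to survive, was at 1283 in the 59 and 1784 in the 32 against 2561, and the cytokine Csf1 at 265 and 279 against 300. Tmem119 was at 844 CPM in the 32 cells and 289 in the 27. Control microglia had 3.28 CPM of Spp1, 25.6 of Csf1 and 386 of Apoe. The summed SAMC list (Spp1, Fabp5, Gpnmb, Lpl, Mmp12, Csf1, Adam8) was at 2139 CPM in these cells, 837 in the microglia clusters at 72 h and 37.5 in those of control brain. Spp1 had a UMI in 24 of the 59 cells (40.7%, median 4704 UMIs) and in 8.21% of the lymphoid cells of this library (median 1184.5 UMIs). At least 1 gene of the border macrophage list was found in 14 of the 59 cells, a count without a background share and so not read as expression. This list summed to 88.5 CPM in the 59 cells, 48.2 in the microglia clusters at 72 h and 2.95 in those of control brain. The lymphoid cells of the library at 72 h had 25.6 CPM of it. These are sums over the cells of 1 library, and control brain has the longer gene table, so no test was possible.

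Within the cluster and by the marker rule, monocyte/macrophage-led cells outnumbered the other myeloid cells of the dura, but by profile likelihood control dura held 16 dendritic cells and 14 monocytes/macrophages. Outside it, at least 3 core cycle genes were found in control dura in 24 Granulo_2 cells and 20 granulocyte-led barcodes without a cluster, and at 24 h in 43 and 64. The monocyte/macrophage-led cells were 18 of 43 in dura at 24 h (41.9%, 27.0 to 57.9), 13 of 62 in control dura (21.0%, 11.7 to 33.2), 3 of 14 in control pia and 1 of 10 in pia at 24 h. Among the other annotated cells they were 737 of 4475 in dura at 24 h and 788 of 2749 in control dura. In pia they were 1241 of 2796 in controls and 1879 of 3912 at 24 h. Among the meningeal libraries, only dura at 24 h had a higher share in the proliferating than in the other cells. Among all cells of other clusters, the monocyte list led 70.6% of Granulo_1, 26.2% of Macro_1 and 10.3% of Macro_2. It led 1.16% of CAM_1, 1.92% of SAMC and 4.25% of CAM_2. The border macrophage list led 52.8% of CAM_1, 32.8% of CAM_2 and 2.96% to 26.1% of the others. Nearly all proliferating monocyte/macrophage-led cells followed the monocyte list (64 of 67) and 2 the border macrophage list. As a share of their clusters plus themselves they were 1.49% (0.883 to 2.34) in dura at 24 h, 1.32% (0.704 to 2.24) in control dura, 0.896% (0.329 to 1.94) in brain at 24 h replicate 2 and 0.782% (0.512 to 1.14) in brain at 72 h. These intervals overlapped. For brain at 72 h profile likelihood gave 1.52% and marker denominators 1.27%, and for dura at 24 h marker denominators gave 2.38% and for brain at 24 h replicate 2 they gave 1.74%. The share in control pia was 0.149% (0.0308 to 0.435) and that in pia at 24 h was 0.0415% (0.00105 to 0.231), and both lay below the intervals of the dura. Control pia was at 0.298% by profile likelihood.

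At 72 h in the brain, the 26 monocyte/macrophage-led cells had more Ly6c2 and granule protease transcripts, and less Apoe and Spp1, than the Granulo_1 cells of the same library. The monocyte list, which holds Ly6c2, Ccr2 and Fn1, led 25 of them and 72.0% of Granulo_1, so these genes in part restate the choice of cells. Neutrophil markers moved with this difference, and their part in it was not tested. The neutrophil precursor list summed to 845 CPM against 45.6 and the neutrophil list to 1282 against 709. At least 2 genes of the precursor list were found in 14 of the 26 cells. At least 2 of the neutrophil list were also found in 14, which need not be the same cells. Ly6c2, which marks recently recruited monocytes, was at 2104 CPM against 634. The granule protease Prtn3, made by myeloid precursors, was at 489 against 24.5, and F13a1 (coagulation factor XIII) at 822 against 389. By comparison, Csf1r was at 163 against 555, Spp1 at 37.0 against 647 and Apoe at 259 against 12947. The chemokine receptor Ccr2 was at 452 against 760 and Fn1 at 1260 against 1785. Microglia markers were low in these cells, with Tmem119 at 22.2 CPM and Sall1 at 0. Ly6c2 was also high in the monocyte/macrophage-led cells of brain at 24 h replicate 2 (2975 CPM), dura at 24 h (1887) and control dura (1409).

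**Figure D3:**
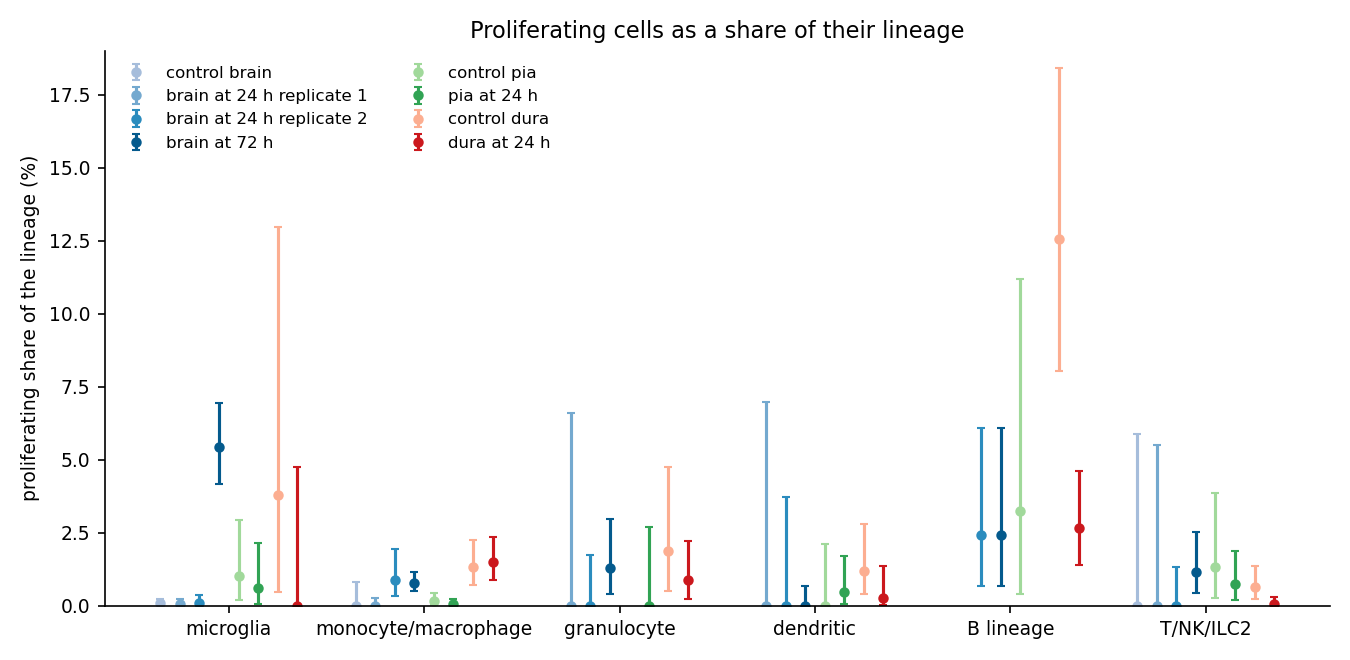
Proliferating cells of each lineage as a share (%) of these cells plus the clusters of that lineage, by library (points, with 95% exact binomial intervals as bars), where the clusters hold at least 50 cells. Microglia in the brain at 72 h (5.43%) and B-lineage cells in control dura (12.6%) stand highest, and by profile likelihood they are 3.02% and 3.16%.

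B-lineage-led cells were the largest group within the cluster in control dura by the marker rule, but by profile likelihood 8.06% of its proliferating cells fell into Bc. Outside the cluster, 24 Granulo_2 cells and 20 granulocyte-led barcodes without a cluster had at least 3 core cycle genes there. They made up 22 of its 62 proliferating cells (35.5%, 23.7 to 48.7) and 12 of the 43 in dura at 24 h (27.9%, 15.3 to 43.7), whereas 6.80% and 11.9% of the other cells were B-lineage-led. They were 12.6% (8.05 to 18.4) of the B cells of control dura and 2.67% (1.39 to 4.61) at 24 h, but by profile likelihood 3.16% and 0.228%. The denominators differed, with 153 cells of Bc in control dura and 438 at 24 h.

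These B-lineage-led cells had more transcripts of B cell precursor genes, and fewer of immunoglobulin chains, than Bc. Vpreb3, which assists assembly of the pre-B cell receptor, was at 1761 CPM in control dura and 1541 at 24 h, and at 442 and 484 in Bc. Igll1, a part of the surrogate light chain, was at 607 and 757 CPM against 19.4 and 122. The receptor Il7r, which drives growth of early B cells, was at 296 and 270 against 58.1 and 48.4, and Myb, a factor of immature blood cells, at 400 and 135 against 67.8 and 41.5. The order was reversed for the light chain Igkc, at 4750 and 2541 CPM against 220509 and 176562, and for the heavy chain Ighm, at 4706 and 3028 against 16038 and 34126. Ms4a1 (CD20) was at 118 and 0 against 391 and 285. Plasma cell markers moved with this gap, with their list at 503 and 243 CPM in the proliferating cells against 68411 and 31926 in Bc, and their part in it was not tested. Apart from Il7r and Myb, these genes were on the lists that chose the cells. In the lymphoid clusters of control dura other than Bc, Vpreb3 was at 0.968 CPM, Igll1 at 0 and Myb at 13.6. Il7r, however, was at 467 CPM there, above the 296 of the B-lineage-led cells, so it does not set these apart from other lymphoid cells. By profile likelihood, 6 of all 44 B-lineage-led cells fell into Bc and 30 into the T cell cluster, so their count as B cells rests on the marker rule.

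The other lineages were small by the marker rule, and most genes given for each were among those that chose its cells. The 20 cells led by T, NK or ILC2 genes were mostly T cells. Trac had a UMI in 18 of them and Cd3g in 19, while Trdc of γδ T cells had 0. Cd8a was seen in 9 and Cd4 in 1. They were 4 of 10 in pia at 24 h, 3 of 14 in control pia, 6 of 62 in control dura, 1 of 43 in dura at 24 h and 6 of 106 in brain at 72 h. The 13 granulocyte-led cells carried the azurophil granule genes of early neutrophil precursors, Elane at 10163 CPM, Mpo at 5193 and Prtn3 at 4490, and no UMI of the late granule gene Ltf or of Cxcr2. Their monocyte list summed to 5932 CPM, beside 27184 for the neutrophil precursor list. By profile likelihood 6 of the 13 fell into granulocyte clusters and 6 into Granulo_1, the monocyte reference, so their lineage rests on the marker rule. One library, dura at 24 h, held the only mast cell or basophil, with all 362 UMIs of Mcpt8. The 8 dendritic-led cells had Flt3 in 7 and Xcr1 in 4. The 4 erythroid-led cells had Car1 at 3876 CPM and Klf1 at 228, genes of red cell precursors, but Hbb-bs of adult hemoglobin at 760. By profile likelihood the dendritic clusters took 42 proliferating cells and the T, NK and ILC2 clusters 64, against 39 in the microglia clusters, so the small size of these lineages rests on the marker rule. Lists for platelets, endothelium, fibroblasts and glia or neurons led no cell.

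**Figure D4:**
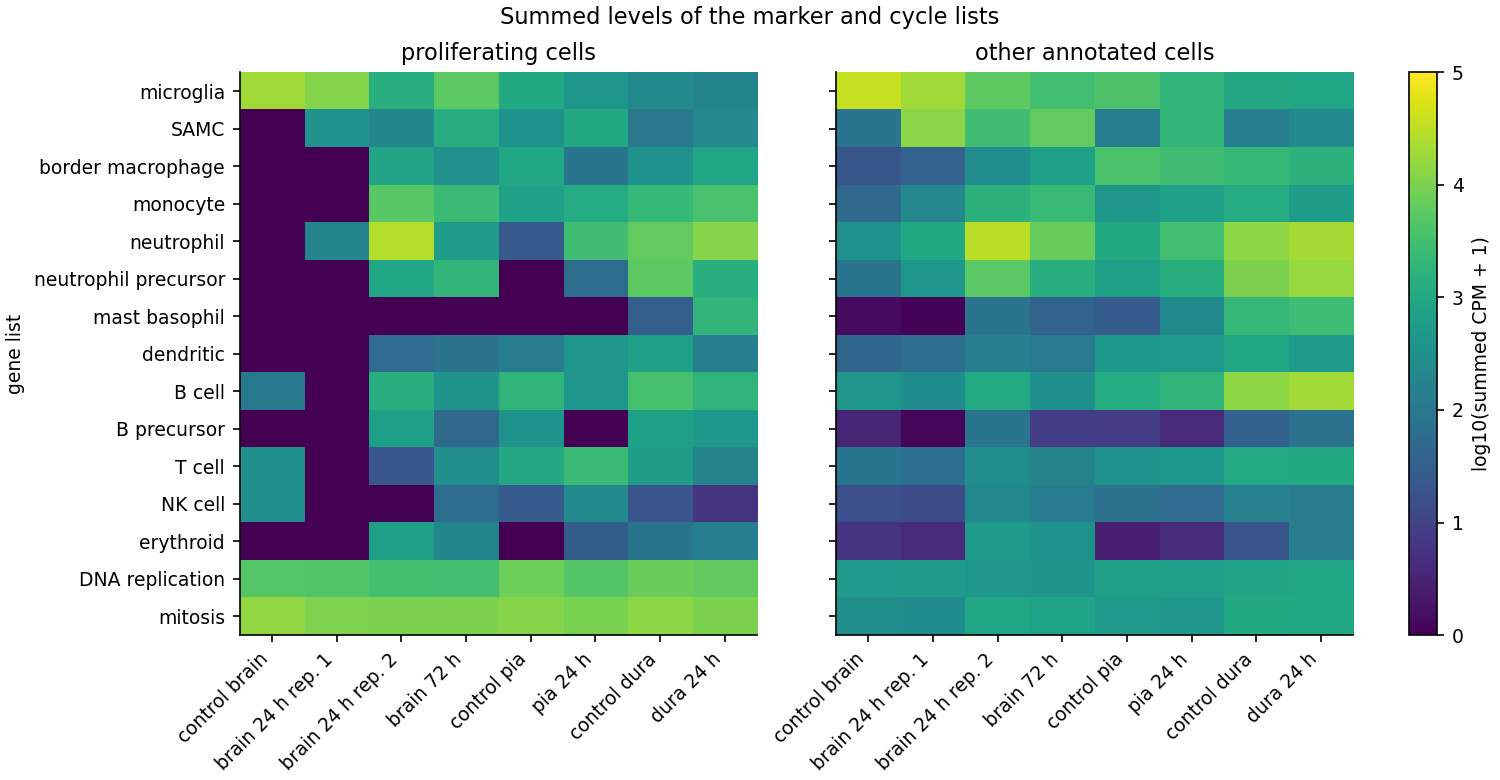
Summed level of each marker and cycle list (colour, log10 of summed CPM + 1) in the proliferating cells (left) and the other annotated cells (right) of the 8 libraries. The mitosis and replication lists are high in every library of the left panel, and the B precursor list reaches 691 CPM in the proliferating cells of control dura.

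The levels of the mitosis and replication lists differed between lineages. B-lineage-led cells of control dura had 13126 CPM of replication genes (12276 to 14019, exact Poisson interval) and 21353 of mitosis genes (20266 to 22484). T/NK/ILC2-led cells of control dura had 10286 and 19343, and B-lineage-led cells of dura at 24 h 9624 and 16842. Microglia-led cells at 72 h had 2382 (2202 to 2573) and 10431 (10051 to 10823). Monocyte/macrophage-led cells had 3527 (3217 to 3859) and 11700 (11130 to 12292) at 72 h, and in dura 4886 and 13998 in controls and 5344 and 8983 at 24 h. The 6 T/NK/ILC2-led cells at 72 h had 3866 (3168 to 4672) and 15537 (14103 to 17077). At 72 h these lymphoid cells thus overlapped the monocyte/macrophage-led cells on the replication list and lay above them on the mitosis list. Within control dura, which needs no comparison of gene tables or kits, the monocyte/macrophage-led cells were below both lymphoid groups on both lists. These intervals cover counting error only, and 13, 22 and 6 cells stood behind the 3 values.

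**Figure D5:**
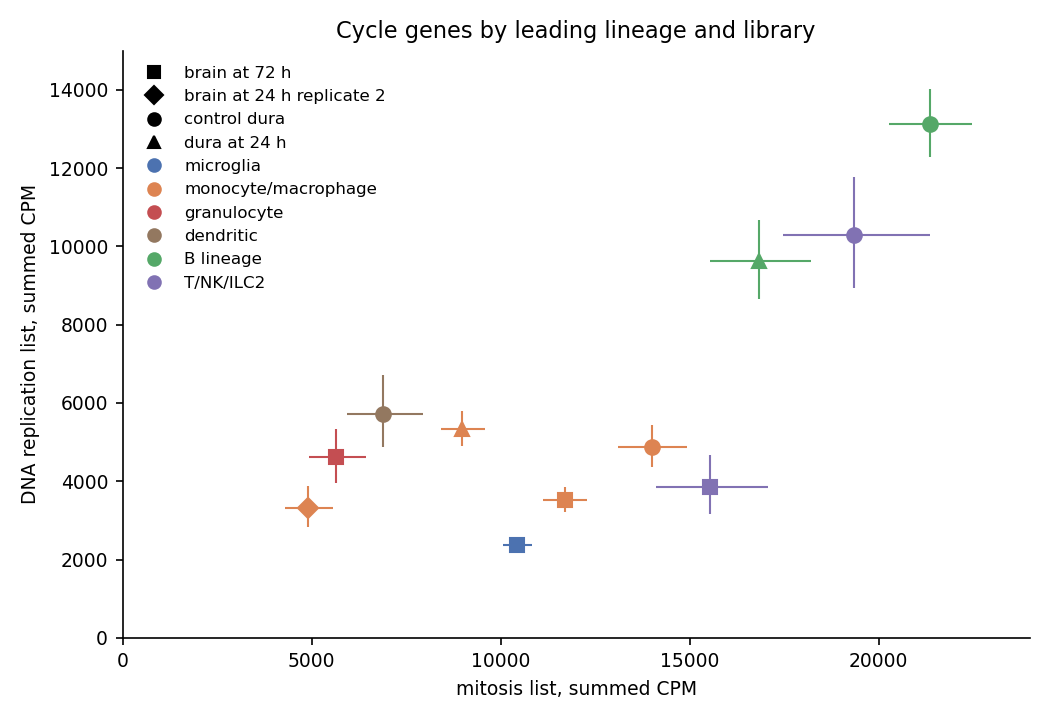
Summed CPM of the replication list (vertical) against that of the mitosis list (horizontal) for each group of at least 5 proliferating cells with a common leading lineage (colour) in a library (symbol), with 95% exact Poisson intervals. The lymphoid groups of the dura lie at the upper right and the microglia-led cells at 72 h are lowest on the vertical axis (2382 CPM).

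The cluster did not hold all cells with cycle transcripts. After thinning of each cell to 1000 UMIs, with shallower cells left out, 167 of 247 proliferating cells (67.6%) had at least 3 of 20 core cycle genes, and 89 of 25238 other annotated cells (0.353%) had. Without thinning, 242 of 257 (94.2%) and 232 of 32200 (0.720%) had. Of these 89 cells, 55 were in Granulo_2, where they were 7.57% of 727 cells, and each other cluster had at most 5. The 96 such Granulo_2 cells found without thinning were 43 from dura at 24 h, 24 from control dura and 18 from brain at 72 h. They had Camp at 45700 CPM against 21762 in the rest of Granulo_2, Fcnb at 1565 against 115 and Ngp at 99725 against 56840, genes of neutrophil precursors with secondary granules. Genes of mature neutrophils were lower, Retnlg at 632 against 22231 and Cxcr2 at 11.5 against 315. Their median depth was 5888.5 UMIs against 1085.5, and the part of depth was not tested. These values pool libraries that were not matched between the 96 cells and the rest, and the part of library was not tested either. In all cells outside the cluster, Ngp was at 6622 CPM in control dura, 12041 in dura at 24 h and 587 in brain at 72 h. By comparison, the 13 granulocyte-led cells inside the cluster had Camp at 3095 CPM and no UMI of Cxcr2.

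Barcodes that the authors' annotation gives no cluster also held cycle transcripts. Of 3707 such barcodes, 141 (3.80%) had at least 3 core cycle genes after thinning, with 10.6% in dura at 24 h and 7.92% in control dura. Without thinning there were 278, of which 196 had more genes than any annotated cell of their library. By library the highest number of genes in an annotated cell was 1475 in control brain, 1988 and 2976 in the replicates of brain at 24 h, 2998 in brain at 72 h, 1996 (control) and 1974 (24 h) in pia and 2499 (control) and 2449 (24 h) in dura. Proliferating cells reached 2993 genes in brain at 72 h and 2449 in dura at 24 h. Their median depth exceeded that of other cells in all 8 libraries, by 1.26 times in control pia and by 5.09 times in brain at 24 h replicate 2. Granulocyte-led barcodes were the largest group of the 278, at 106, of which 64 were in dura at 24 h. With cycle genes after thinning and all barcodes counted, dura at 24 h had 3.27% and control dura 3.67%. These lay closer to each other than the cluster's 0.952% and 2.21%, but both the measure and the barcodes counted had changed. Cycle genes in annotated cells alone gave 1.96% and 3.20%. Whether some of these barcodes held more than 1 cell was not tested.

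Genes of the proliferating cells were tested between meninges and brain, and genes were called in both directions. Both brain libraries came after MCAO, at 24 h and 72 h, while the meningeal libraries were controls or at 24 h. Compartment, gene table and time after MCAO thus cannot be told apart in this comparison. With edgeR's quasi-likelihood test on UMIs summed over the proliferating cells of the 4 meningeal and 2 brain libraries, 215 of 3216 genes were higher (6.69%) and 418 lower (13%), where a call needed a 2-fold difference and an adjusted p below 0.05. Scaling by library size alone gave 320 higher and 308 lower. Library size alone also moved the median log2 fold change of all tested genes from 0.05 to 0.26. The count was 118 without brain at 72 h, which leaves 1 brain library, 268 without control dura and 397 without dura at 24 h.

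Of 12 microglia genes 6 were tested, and 5 were lower and 0 higher by edgeR, and 2 lower and 0 higher by DESeq2. Genes with few or no UMIs in the meninges passed the filter on low counts through the brain libraries. The direction of this tally was thus largely fixed by the filter, and no conclusion is drawn from it. Sparc had no UMI in the 4 meningeal libraries and was at 228 and 854 CPM in the brain (edgeR adjusted p = 0.00109). Its groups did not overlap, but the filter allowed little else for a gene without UMIs in the meninges. Tmem119 was at 43.4 and 306 CPM in the brain, 102 in control pia and 0 in the other 3, so its groups overlapped (log2 fold change -4.80 ± 1.12 SE, edgeR adjusted p = 0.0132). The scavenger receptor Fcrls (-3.54 ± 0.84, edgeR adjusted p = 0.0143) and the fractalkine receptor Cx3cr1 (-3.79 ± 1.03, edgeR adjusted p = 0.0267) were also called. Among genes of other lists, Igll1 was higher, at 50.8, 0, 160 and 136 CPM in the meninges against 10.9 and 3.82 (4.07 ± 0.91, edgeR adjusted p = 0.0110). Fn1 was lower, at 0, 115, 137 and 464 CPM against 1249 and 600 (-2.33 ± 0.69, edgeR adjusted p = 0.0350). DESeq2 kept the calls of Sparc and Igll1 but not those of Tmem119 (adjusted p = 0.539), Fcrls (0.125), Cx3cr1 (0.298) and Fn1 (0.164).

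Most of these calls were shared with the cells outside the cluster. Of the 633 called genes, 625 had the same direction in the other annotated cells of the same libraries and 485 were at least 2-fold there too. The strongest calls were of this kind. Higher in the meninges were Nutf2-ps1, Fam89b, Timm23, Aarsd1, Tomm6, Ube2v1, Gng10, Ngp, Rnasek and Mrpl53. Ngp, of neutrophil precursors, was at 230 and 145 CPM in dura, 0 in both pia libraries and 10.9 and 1.91 in the brain, so its groups overlapped, and DESeq2 did not call it (adjusted p = 0.248). Aarsd1 was at 0 in pia at 24 h as in both brain libraries. Without brain at 72 h the edgeR calls of Nutf2-ps1, Fam89b, Aarsd1, Ube2v1, Ngp, Rnasek and Ptp4a1 were lost. Timm23, a mitochondrial import subunit, was at 102 to 375 CPM in the 4 meningeal libraries and at 0 and 1.91 in the brain, and in other cells at 145 to 263 against 5.27 and 4.73. In control brain, which has the longer gene table, the other cells had 130 CPM of Timm23. Lower were Sparc, Adamts1, Ptp4a1, Hist1h2ab, Gm42418, AY036118, Gm26917, Hist1h4d, Hist1h1e and Hist1h1a, of which Gm42418 had 6376 and 2696 CPM in the proliferating cells of the 2 brain libraries and 18.7 to 86.3 in the meninges. Other cells of control brain had 10.5 CPM of Gm42418 and those of the 2 brain libraries 4871 and 4218. Nutf2-ps1, Fam89b and Aarsd1 were at 0 in both brain libraries, and Sparc, Adamts1, Ptp4a1 and Hist1h2ab in the 4 meningeal libraries. These genes passed the filter on low counts through the other compartment, which largely fixed their direction. Relative to the other cells of each library, an alternative chosen after seeing the data, 0 genes were called by edgeR (135 at an unadjusted p under 0.05).

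Some cycle genes were among the calls. Of 26 tested replication genes 7 were higher and 1 lower, and of 40 tested mitosis genes 5 were higher and 2 lower, beside 6.69% higher and 13% lower over all tested genes, and 33 of the mitosis genes were not called. With library size alone 8 replication and 8 mitosis genes were higher and 1 of each lower. Rrm2 was at 1015, 518, 1179 and 928 CPM in the meninges against 250 and 128 in the brain (log2 fold change 2.11 ± 0.42 SE, edgeR adjusted p = 0.00666). Pcna was at 761, 460, 808 and 558 CPM against 86.9 and 153 (2.08 ± 0.40, edgeR adjusted p = 0.00554). These groups did not overlap, but the log2 fold changes of Rrm2 and Pcna in other cells were 3.14 and 1.92. Mki67, which coats mitotic chromosomes, was at 102, 28.8, 121 and 112 CPM against 478 and 499 (-2.51 ± 0.37, edgeR adjusted p = 0.00148), with -0.52 in other cells. The parts of the gene table and of time after MCAO in these values cannot be told apart from that of the compartment.

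Within the meninges, where all 4 libraries shared a gene table, no gene of the proliferating cells passed the test between 24 h after MCAO and control with the filter on low counts. edgeR called 0 of 2268 genes at 24 h against control (0%), with pia or dura as a covariate, while 187 had an unadjusted p under 0.05, DESeq2 called 1, and edgeR without the filter called 26. On data simulated for this comparison edgeR recovered 48.5% of genes changed 4-fold and 96.8% of those changed 16-fold. The simulation gave all genes the same dispersion and changed only genes above a minimum of UMIs. Recovery in the real libraries may thus be lower and was not tested. The lowest p belonged to Cd83, an activation marker, with 805 CPM in pia and 356 in dura at 24 h against 2208 and 1554 in controls (log2 fold change -1.82 ± 0.28 SE, edgeR adjusted p = 0.414).

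Dura against pia, a comparison added after the data were seen, called few genes. Of 5 tested neutrophil precursor genes 3 were called by edgeR and 0 by DESeq2, and of 5 tested monocyte genes 0 and 1. The tested precursor genes were at or near 0 in pia and passed the filter on low counts through dura. Their count could hardly show the other direction, so no conclusion is drawn from it. edgeR called 6 of 2268 genes higher (0.265%) and 1 lower (0.0441%) in dura. On data simulated for this comparison it called 0.532% of unchanged genes, which is above both shares. That simulation gave all genes the same dispersion, so the share of false calls in the real libraries may differ. In dura, Elane was at 2101 CPM in controls and 319 at 24 h, and in pia at 0 and 28.8 (log2 fold change 6.32 ± 0.80 SE, edgeR adjusted p = 0.0351). Mpo was at 836 and 230 CPM in dura and Prtn3 at 523 and 314, while both were at 0 in the pia libraries (adjusted p = 0.0351 and 0.0499). S100a9 went with them, at 1023 and 1884 against 0 and 115 CPM (4.71 ± 0.55, edgeR adjusted p = 0.0351). The groups did not overlap for these genes. For those at or near 0 in pia the filter left hardly any other outcome, so neither this nor their p-values are read as support. F13a1 was at 351 and 712 against 50.8 and 57.5 CPM (3.18 ± 0.47, adjusted p = 0.0499), and Lyz2 at 8580 and 16634 against 2005 and 3997 (2.03 ± 0.26, adjusted p = 0.0351). F13a1 was on the border macrophage list and Lyz2 on a general myeloid list. In the other cells of the same libraries the log2 fold changes were 6.45 for Elane, 5.61 for Mpo, 3.03 for Prtn3 and 3.25 for S100a9, so these were higher there too, but -1.52 for F13a1 and -0.27 for Lyz2. Spp1 was lower in dura, with 62.5 and 117 against 355 and 920 CPM (-2.81 ± 0.38, adjusted p = 0.0351), and it was also lower in the other cells (-2.60). Of 20 tested replication and 33 tested mitosis genes 0 were called, with log2 fold changes of -0.88 to 1.53. DESeq2 kept the calls of S100a9, Lyz2 and Spp1 but not those of Elane (adjusted p = 0.323), F13a1 (0.0765), Mpo or Prtn3 (both 1.00). The monocyte gene it called was Plac8 (log2 fold change 2.25, DESeq2 adjusted p = 0.0301), at an edgeR adjusted p of 0.141. The pia values rest on 14 and 10 cells, and with library size alone or with cells thinned to 1000 UMIs edgeR called 0 genes (195 and 46 at an unadjusted p under 0.05).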

How the data were processed

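UMI counts per gene and barcode, deposited as matrices, and the authors' table of library and cluster names were used. The submitters' processing notes name Cell Ranger 6.0 and mm10. Per the study's methods, the authors filtered cells on genes and mitochondrial share, removed doublets with scDblFinder and clustered with Seurat and Harmony. The deposited UMAP coordinates (scores) were not used. No doublet caller was run here. The cells, gene lists and tests were chosen with earlier results of these data known.

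Counts were restricted to 30406 genes shared by both gene tables and summed per library (6591898 to 20754181 UMIs in all). Libraries with at least 10 proliferating cells were tested with edgeR 4.0.16 (quasi-likelihood, TMM, filterByExpr, Benjamini-Hochberg adjustment, R 4.3.3). A call needed a 2-fold difference and an adjusted p below 0.05. Each SE of an edgeR log2 fold change was derived from that change and the F statistic of its test. It is thus approximate, above all for genes at 0 in a group. Named genes were those of the lists and the 10 highest and 10 lowest called log2 fold changes with at least 10 UMIs. On simulated data for meninges against brain, 76.5% of genes changed 4-fold and 98.9% of those changed 16-fold were recovered. For dura against pia these were 60.4% and 100%. Simulated counts had the same dispersion for all genes and means pooled over the libraries, with changes only in genes above a minimum of UMIs. They were thus simpler than the real libraries. Of unchanged genes, 12 of 2257 (0.532%) were called for dura against pia, 4 of 3309 (0.121%) for meninges against brain and 2 of 2174 (0.0920%) for 24 h against control. Shares have exact (Clopper-Pearson) 95% intervals, computed with scipy 1.17.1, that cover counting error only. Cells were thinned to 1000 UMIs to compare depths. Alternatives were DESeq2 1.42.0, other scalings and filters, profile likelihood for lineages, other denominators, and leaving out libraries. Values of 1 microglia list gene are not reported here.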

Additional observations from a re-analysis of the deposited data

Results flagged for a closer look

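Among 33 groups of libraries checked, 3 had a library far from the others by Dixon's criterion, and chance gives about 1 in 20. Elane was at 2101 CPM in the proliferating cells of control dura, far above the other meningeal libraries. AY036118, at 14.1 CPM, and Hist1h1a, at 4.69 CPM, stood apart in dura at 24 h, but the other 3 meningeal libraries were at 0 and the values rest on a few UMIs among 213364, so nothing is read from them. Between 24 h and control the lineage shares moved in opposite directions in dura and pia, with 1 library on each side, and the differences were not tested. The monocyte/macrophage-led share differed by 20.9 percentage points in dura and -11.4 in pia, the dendritic-led share by -5.74 and 20.0, and the T/NK/ILC2-led share by -7.35 and 18.6. Of the barcodes without a cluster in dura at 24 h, 10.6% had at least 3 core cycle genes after thinning.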

How the results depend on the processing

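The proliferating share was higher when counted among cells outside the microglia clusters (0.709% in control brain and 1.09% in brain at 24 h replicate 2) and among cells with at least 1000 UMIs (0.847% in brain at 24 h replicate 2, and in dura 2.85% for control and 1.55% at 24 h). By cycle genes in annotated cells it was in dura 3.20% for control and 1.96% at 24 h, and over all barcodes 0.279% in control brain, 1.02% in brain at 24 h replicate 2, 1.07% in control pia, and in dura 3.67% for control and 3.27% at 24 h. Leaving out 1 library gave differences of -0.0193 to 0.778 percentage points for meninges minus brain and -0.659 to 0.397 for MCAO minus control, and both reversed without control dura.

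By profile likelihood, microglia were 30.2% and monocytes/macrophages 48.1% of the proliferating cells of brain at 72 h, and B-lineage cells of the dura 8.06% for control and 2.33% at 24 h. Thinning left 6.25% monocyte/macrophage-led cells in brain at 24 h replicate 2. Per lineage, likelihood gave 3.02% of microglia and 1.52% of monocytes/macrophages at 72 h, and 3.16% and 0.228% of B cells in control dura and dura at 24 h. Denominators by the marker rule, chosen after seeing the data, gave 3.04% and 1.27% at 72 h and 2.38% for monocytes/macrophages in dura at 24 h. Cycle genes outside the cluster were found in 0.785% of cells with at least 2 genes required, 0.123% with 5, 0.168% at 500 UMIs and 0.720% without thinning.

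Meninges against brain gave 1040 called genes without a filter, 166 with thinned cells, 1212 with libraries of at least 20 cells, 0 relative to other cells (135 at an unadjusted p under 0.05) and 118 to 782 with 1 library left out. Relative to other cells, the log2 fold changes of Tomm6 (-0.39), Gng10 (-0.38), Rnasek (-0.90), Mrpl53 (-0.66) and Gm42418 (0.52) reversed. For 24 h against control in the meninges, DESeq2 called 1 gene and edgeR without a filter 26. For dura against pia, DESeq2 called 11 genes (3 shared), edgeR without a filter 80 (7 shared), and library size alone and thinned cells each 0 (195 and 46 at an unadjusted p under 0.05). The causes were not tested. A minimum of 5 cells kept the same libraries, and leaving out 1 of the 4 meningeal libraries left no residual degrees of freedom in the fit with both compartment and condition. No paired analysis was possible because the groups compared share fewer than 2 replicate numbers, while compartment or condition was the covariate of the meningeal fits and compartment the block of a permutation. The precision is limited in control brain, brain at 24 h replicate 1 and pia by their 4, 2 and at most 14 proliferating cells per library.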
